A study of Mus musculus with 4 samples.

Results

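The NFAT transcription factors and calcineurin, the phosphatase that activates them, were followed in T cells taken from bone marrow after an allogeneic transplant. The 8 genes were Nfatc1, Nfatc2 and Nfatc3, the related factor gene Nfat5, the calcineurin catalytic subunit genes Ppp3ca, Ppp3cb and Ppp3cc, and Rcan1, a calcineurin inhibitor. They were chosen by name, and all 8 were found among the 32285 genes of the RNA table. A further 167 of the 148283 deposited accessibility peaks overlapped one of these genes or lay within 10 kb of it. The mice were C57Bl/6 (B6) recipients of 5000000 marrow cells, 500000 each of CD4 and CD8 T cells, all from C3H.SW mice. In the PT-Cy group they also received cyclophosphamide, a drug that kills dividing cells, at 50 mg/kg on day 3 and on day 4. The alloBMT group had the same transplant without the drug. T cells were sorted from the marrow on day 14, with 4 mice pooled in each group, and each nucleus gave both RNA and accessible chromatin (ATAC). With 1 library per group and assay, no difference had a replicate check and none could be tested. Intervals are 95% intervals for counting error alone, and are exact unless stated otherwise.

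T cell receptor signals raise calcium in the cytoplasm, calcium and calmodulin switch on calcineurin, and calcineurin strips phosphates from NFATc1, NFATc2 and NFATc3 so that they enter the nucleus. There they bind GGAAA-type sites, often beside AP-1 factors, and drive cytokine genes such as Il2 and Ifng. Without an AP-1 partner they are known to drive inhibitory receptor genes and genes of exhausted or anergic T cells. NFAT5 responds to osmotic stress, and its entry into the nucleus does not need calcineurin. Rcan1 is itself an NFAT target and feeds back on calcineurin, and ciclosporin and tacrolimus, drugs used in transplantation, inhibit the phosphatase.

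Nfatc2 and Rcan1 each had a pair of listed start sites, and the 250 bases before each are shown because a deposited peak overlapped each and both genes carried an accessibility difference described further on. The sequences are from RefSeq (GRCm38.p6), 5′ to 3′ on the minus strand, with matches to GGAAA (or TTTCC, its reverse complement) and to the AP-1 motif TGANTCA in capitals.
Nfatc2, distal start, chr2:168601658-168601907: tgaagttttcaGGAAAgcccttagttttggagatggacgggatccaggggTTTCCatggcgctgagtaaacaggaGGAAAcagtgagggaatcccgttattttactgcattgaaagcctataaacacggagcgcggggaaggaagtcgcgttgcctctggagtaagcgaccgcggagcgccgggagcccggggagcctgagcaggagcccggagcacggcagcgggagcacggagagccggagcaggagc
Nfatc2, internal start, chr2:168590366-168590615: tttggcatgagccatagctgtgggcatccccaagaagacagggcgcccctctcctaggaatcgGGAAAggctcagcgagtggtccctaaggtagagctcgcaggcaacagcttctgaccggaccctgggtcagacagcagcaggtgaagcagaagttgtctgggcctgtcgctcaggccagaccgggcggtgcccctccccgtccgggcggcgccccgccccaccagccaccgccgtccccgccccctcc
Rcan1, distal start, chr16:92466170-92466419: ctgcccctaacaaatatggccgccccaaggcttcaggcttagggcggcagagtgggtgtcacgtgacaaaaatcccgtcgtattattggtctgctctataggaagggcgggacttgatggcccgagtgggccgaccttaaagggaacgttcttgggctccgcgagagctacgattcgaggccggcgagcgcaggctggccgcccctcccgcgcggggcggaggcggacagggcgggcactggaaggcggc
Rcan1, internal start, chr16:92400079-92400328: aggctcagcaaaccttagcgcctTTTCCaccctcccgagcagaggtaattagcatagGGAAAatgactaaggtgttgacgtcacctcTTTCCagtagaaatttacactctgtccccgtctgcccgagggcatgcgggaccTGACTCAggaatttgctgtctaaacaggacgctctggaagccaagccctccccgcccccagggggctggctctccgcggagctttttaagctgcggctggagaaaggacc
The distal Nfatc2 window held 3 GGAAA matches and the internal one 1. The distal Rcan1 window held 0 and the internal one held 3 and a TGANTCA match. Of 32851 such windows of all genes, 55.6% held at least 1 GGAAA match, 6.39% held at least 3 and 6.75% held TGANTCA. A match of letters is a description and not a shown binding site. Start sites of Nfat5, Nfatc3 and Ppp3cb were also listed.

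In the CD4 set, 284 PT-Cy cells gave 1264107 UMIs (unique RNA molecules) and 926 alloBMT cells gave 3027967, with medians of 3889 UMIs per PT-Cy cell and 2750 per alloBMT cell. The RNA table used here covers CD4 cells, and the ATAC table covers CD4 cells and 512 PT-Cy and 1865 alloBMT CD8 cells. ATAC counts per cell were lower after PT-Cy in both sets, with medians of 4090.5 and 6874 in CD4 cells and 4615 and 7841 in CD8 cells. Cd8a was at 0 in both CD4 libraries, but Cd8b1, the other CD8 chain, stood at 131 CPM (counts divided by the total of the cell set, on a per-megacount scale) in PT-Cy and 100.1 CPM in alloBMT. The 3 genes of dividing cells (Mki67, Top2a, Cenpf) summed to 1872 CPM in PT-Cy and 488 CPM in alloBMT. The 4 red cell genes summed to 841 and 209 CPM, and the 4 neutrophil genes to 197 and 27.4 CPM, with none at 0 in either library. The 4 monocyte genes summed to 174 and 135 CPM and the 3 osteoclast genes to 77.5 and 54.2 CPM, with 1 osteoclast gene at 0 in each. The 3 plasma cell markers were at 0 in both, 2 of 5 B cell markers were at 0 in each, and the platelet markers had 1 UMI in PT-Cy and 0 in alloBMT. The 6 T cell genes summed to 4239 CPM in PT-Cy and 5327 CPM in alloBMT, and Cd4 with Cd40lg to 555 and 727 CPM. The part of these markers in the results was not tested. Values without cells holding a Cd8b1, Mki67 or Top2a UMI, or a neutrophil, monocyte, B cell or platelet marker UMI, are given below. No values were computed without cells holding red cell or osteoclast genes.

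Nfatc1, the NFAT gene known for an inducible promoter that NFAT itself activates, was the member that differed most between the CD4 libraries. It had 324 UMIs in the PT-Cy library and 1816 in the alloBMT library, or 256 and 599.7 CPM. This was 2.34-fold lower in PT-Cy (2.08 to 2.64), a log2 ratio of -1.23 (-1.40 to -1.06). Of the 6285 genes that reached 100 UMIs in the libraries together, 1.69% had a lower ratio. Nfatc2, the factor present in resting T cells, lay on the other side of 0. It had 235 UMIs in PT-Cy and 354 in alloBMT, or 186 and 117 CPM, 1.59-fold higher in PT-Cy (1.34 to 1.88). Of the same 6285 genes, 89.9% had a lower ratio than Nfatc2 and 17.4% a larger absolute one. Nfatc3, prominent in thymocytes, had 527 UMIs in PT-Cy and 1056 in alloBMT, 417 and 349 CPM, with a log2 ratio of 0.26 (0.10 to 0.41). Of the 7 members that reached 100 UMIs, 1 was past 2-fold, against a background of 7.81% of all such genes, and 2 were past 1.5-fold, against 22.0%. The members as a set therefore stood near the background, and those past 1.5-fold were Nfatc1 and, with a smaller size, Nfatc2.

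The calcineurin genes had nearly equal levels in both libraries. Ppp3ca, which encodes the alpha catalytic subunit, had 740 UMIs in PT-Cy and 1665 in alloBMT, 585 and 549.9 CPM, a log2 ratio of 0.09 (-0.04 to 0.22). Ppp3cb, the beta subunit, had 254 and 514 UMIs, 201 and 169.8 CPM, a log2 ratio of 0.24 (0.02 to 0.46). Ppp3cc, the gamma subunit, had 362 and 992 UMIs, 286 and 328 CPM, a log2 ratio of -0.19 (-0.37 to -0.02). The 3 genes summed to 1073 CPM in PT-Cy and 1047 CPM in alloBMT, a log2 ratio of 0.03 (-0.06 to 0.13), so a change of the summed level beyond about 0.13 on this scale lay outside the counting interval. Nfat5 was equally flat, with 425 UMIs in PT-Cy and 1000 in alloBMT, 336 and 330.3 CPM, a log2 ratio of 0.03 (-0.14 to 0.19). Rcan1 was sparse, with 26 UMIs in PT-Cy and 56 in alloBMT, 20.6 and 18.5 CPM. Its log2 ratio of 0.15 had an interval of -0.58 to 0.85, so no direction could be read at this depth, and it was the 1 member below 100 UMIs.

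**Figure D1:**
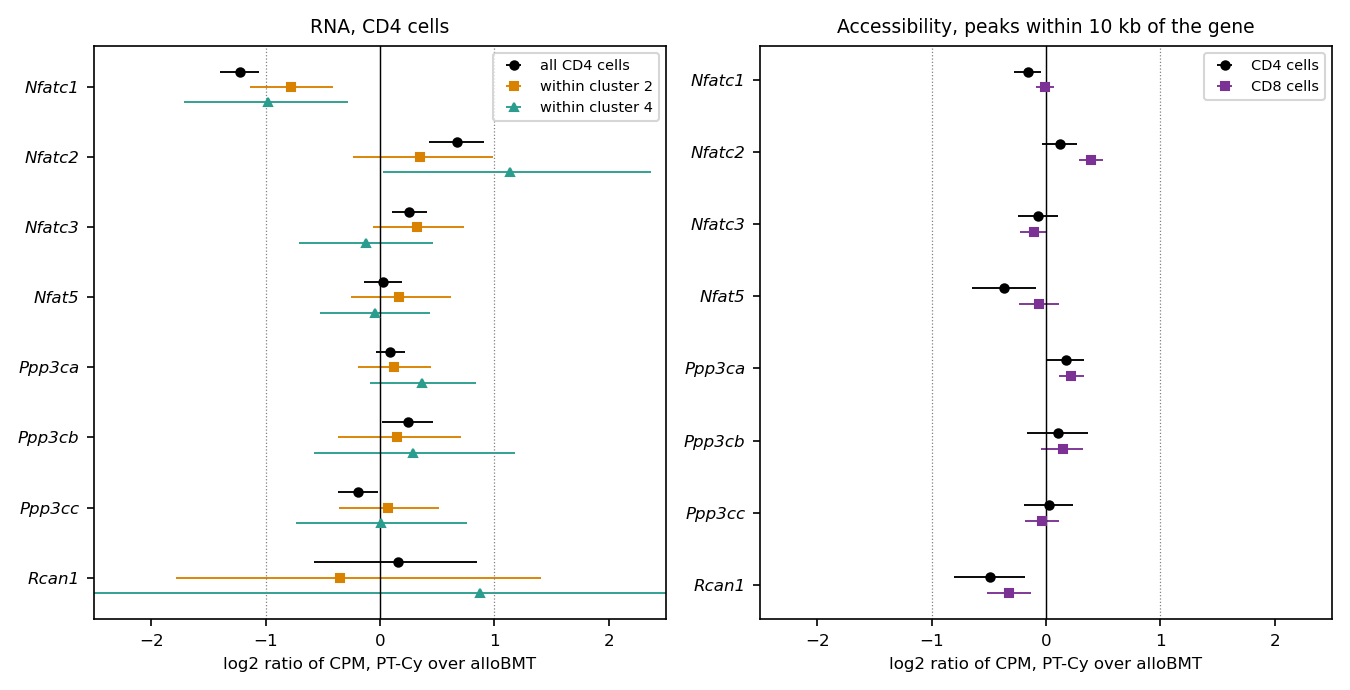
Log2 ratio of PT-Cy over alloBMT for each gene with its exact 95% counting interval, for RNA of CD4 cells (left: all cells, cluster 2, cluster 4) and for summed peak counts within 10 kb (right: CD4 and CD8 cells). Dotted lines mark 2-fold, and intervals that run past the axis are cut at it. Nfatc1 RNA lies at -1.23 over all CD4 cells, -0.78 within cluster 2 and -0.98 within cluster 4, while its accessibility lies at -0.16 in CD4 cells and -0.01 in CD8 cells.

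Because the libraries differ in depth, the mix of NFATc transcripts was also read as shares, which need no scaling between libraries. These shares compare libraries and not the genes with each other, since transcript length and capture differ by gene. Nfatc1 made up 29.8% (27.1 to 32.7) of the summed Nfatc1, Nfatc2 and Nfatc3 UMIs in PT-Cy and 56.3% (54.6 to 58.0) in alloBMT. The Nfatc2 share was 21.6% (19.2 to 24.2) in PT-Cy and 11.0% (9.92 to 12.1) in alloBMT. Nfatc3 took 48.5% (45.5 to 51.5) in PT-Cy and 32.7% (31.1 to 34.4) in alloBMT. The sum of the 3 genes was 859 CPM in PT-Cy and 1065 CPM in alloBMT, a log2 ratio of -0.31 (-0.41 to -0.21), a smaller difference than that of Nfatc1 alone. Set against Nfatc2 alone, Nfatc1 held 58.0% (53.7 to 62.1) of the pair's UMIs in PT-Cy and 83.7% (82.1 to 85.2) in alloBMT. The calcineurin shares were closer, with Ppp3ca at 54.6% (51.9 to 57.2) in PT-Cy and 52.5% (50.8 to 54.3) in alloBMT, and Ppp3cc at 26.7% (24.4 to 29.1) and 31.3% (29.7 to 32.9).

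**Figure D2:**
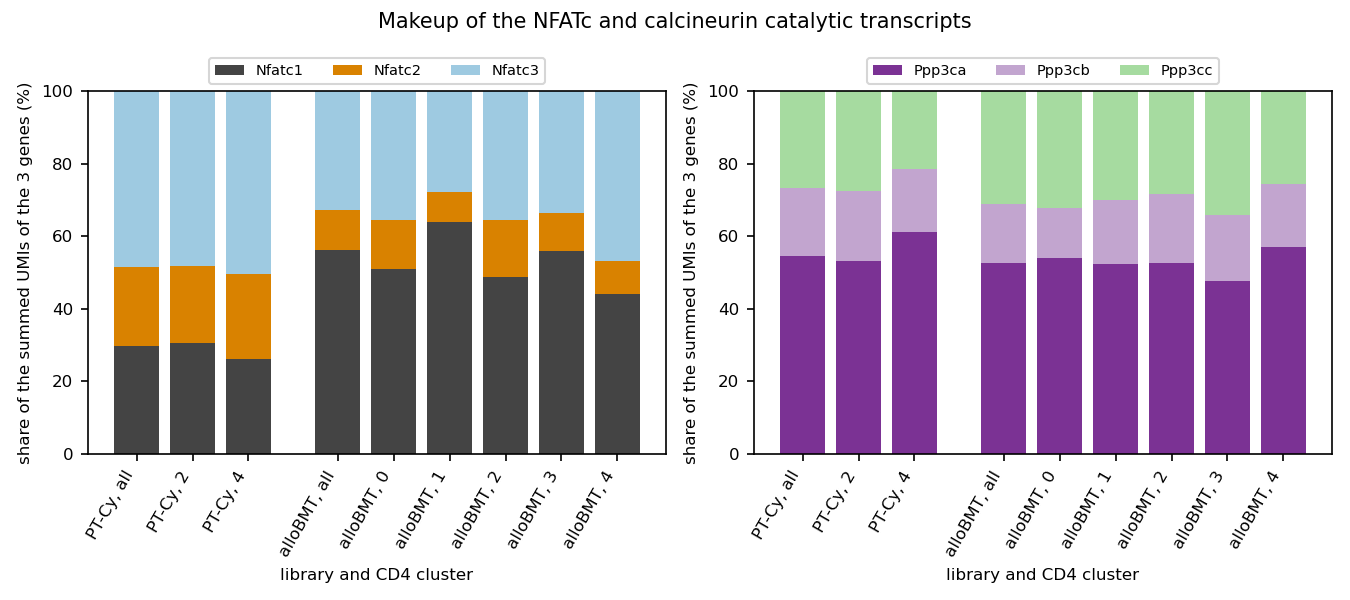
Share of each gene in the summed UMIs of its family (vertical axis, %), for NFATc genes (left) and calcineurin catalytic subunits (right), in all CD4 cells of each library and in each CD4 cluster with at least 30 cells (the number after the library name). The Nfatc1 segment is 29.8% in PT-Cy and 56.3% in alloBMT, and the calcineurin segments differ less, with Ppp3ca at 54.6% and 52.5%.

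The authors' clusters split the libraries unevenly, so levels were read within clusters. Cluster 2 held 238 of the 284 PT-Cy cells and 42 alloBMT cells, cluster 4 held 31 PT-Cy and 34 alloBMT cells, and clusters 0, 1 and 3 held at least 30 cells in alloBMT only. Nfatc1 stood at 265 CPM in PT-Cy cluster 2 and 192 CPM in PT-Cy cluster 4. In alloBMT it stood at 546 CPM in cluster 0, 699 in cluster 1, 454 in cluster 2, 609 in cluster 3 and 379.9 in cluster 4. Both PT-Cy values were below all 5 alloBMT values, although the interval of PT-Cy cluster 2 (234 to 298) overlapped that of alloBMT cluster 4 (281 to 502). Within cluster 2 the Nfatc1 log2 ratio was -0.78 (-1.14 to -0.41), and within cluster 4 it was -0.98 (-1.72 to -0.28). Both were nearer 0 than the ratio over all CD4 cells, and neither reached 2-fold. Within cluster 2, 5.73% of the genes with 100 UMIs were past 2-fold and 20.8% past 1.5-fold, and of the members Nfatc1 alone was past 1.5-fold.

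Nfatc2 stood at 183 CPM in PT-Cy cluster 2 and 171 CPM in PT-Cy cluster 4. Its alloBMT values were 146 CPM in cluster 0, 89.1 in cluster 1, 144 in cluster 2, 113 in cluster 3 and 77.5 in cluster 4. Both PT-Cy strata were highest, but neighbouring intervals in the order overlapped throughout. The Nfatc2 log2 ratio was 0.35 (-0.24 to 0.98) within cluster 2 and 1.14 (0.02 to 2.37) within cluster 4, a value resting on 24 PT-Cy and 10 alloBMT UMIs. The share of Nfatc1 in the Nfatc1 and Nfatc2 UMIs was 59.1% (54.5 to 63.5) in PT-Cy and 75.9% (66.9 to 83.5) in alloBMT within cluster 2. Within cluster 4 it was 52.9% (38.5 to 67.1) in PT-Cy and 83.1% (71.0 to 91.6) in alloBMT, so the intervals lay apart in both clusters. No other member had a within-cluster interval that excluded 0.

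Nfat5 followed the clusters and not the libraries. It stood at 541 CPM in PT-Cy cluster 4 and 558 CPM in alloBMT cluster 4, against 312 CPM in PT-Cy cluster 2 and 278 to 328 CPM in the other 4 alloBMT clusters. The cluster 4 intervals (426 to 677 in PT-Cy and 437 to 703 in alloBMT) did not overlap those of any other stratum. The clusters were made by the authors from these cells, so this is a description and not a test. Ppp3ca was highest in PT-Cy cluster 4 at 691 CPM and lowest in alloBMT cluster 3 at 480.2 CPM, and each interval overlapped that of its neighbour in the order. Ppp3cc ranged from 240.4 CPM in alloBMT cluster 4 to 353 CPM in alloBMT cluster 0, again with no gap between neighbours.

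**Figure D3:**
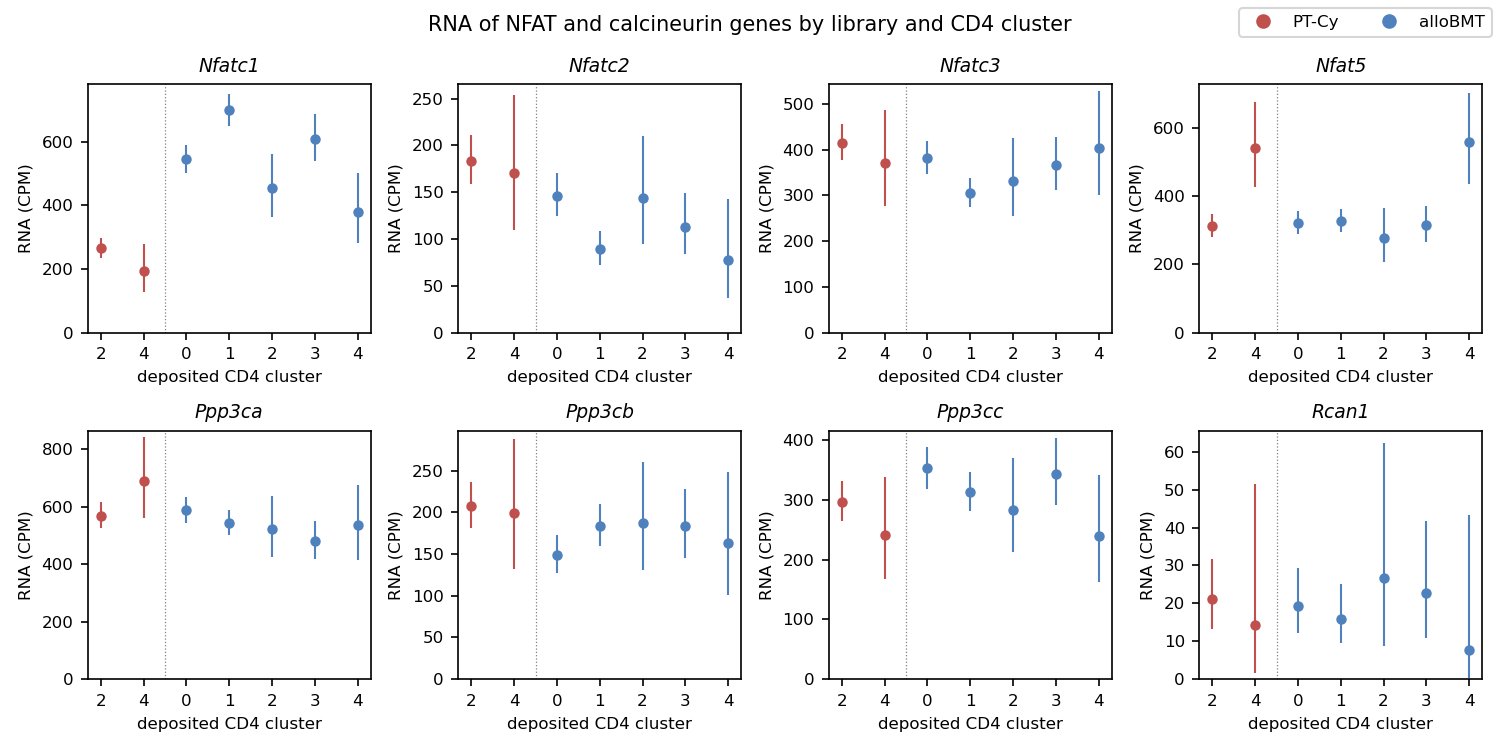
RNA of each gene in CPM (vertical axis, from 0) in each deposited CD4 cluster with at least 30 cells, PT-Cy left of the dotted line and alloBMT right of it, with exact 95% counting intervals. Nfatc1 is lowest in the 2 PT-Cy strata (265 and 192 CPM), and Nfat5 is highest in cluster 4 of both libraries (541 and 558 CPM).

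A smaller share of PT-Cy than of alloBMT CD4 cells held a Nfatc1 transcript. To compare cells at 1 depth, counts were drawn down to 1981 UMIs per cell, leaving 259 PT-Cy and 830 alloBMT cells and dropping 25 and 96 shallower ones. A Nfatc1 UMI was then found in 37.8% of PT-Cy cells (31.9 to 44.0) and 65.1% of alloBMT cells (61.7 to 68.3). Without thinning the shares were 60.6% and 75.7%. A Nfatc2 UMI was found in 31.7% of thinned PT-Cy cells (26.0 to 37.7) and 18.6% of thinned alloBMT cells (16.0 to 21.4). The shares of Nfatc3 (53.3% and 47.5%), Nfat5 (45.2% and 42.2%), Ppp3ca (61.8% and 60.6%), Ppp3cb (31.3% and 27.3%), Ppp3cc (39.4% and 44.3%) and Rcan1 (5.02% and 3.61%) had overlapping intervals. Hbb-bs, a haemoglobin gene that T cells lack, was found in 52.1% of thinned PT-Cy cells and 20.1% of alloBMT cells. S100a9, a neutrophil gene, was found in 8.11% and 2.05%. Both genes of other cells were found in a higher share of PT-Cy cells, and the part of such RNA in the Nfatc1 and Nfatc2 shares was not tested.

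Several cell groups were left out in turn. Without cells holding a Cd8b1 UMI (193 PT-Cy and 731 alloBMT cells left), the log2 ratio was -1.28 for Nfatc1 and 0.83 for Nfatc2. Without cells holding a neutrophil, monocyte, B cell or platelet marker UMI (113 and 594 cells left), it was -1.33 for Nfatc1 and 0.54 for Nfatc2, which is below 1.5-fold. In cells with no Mki67 or Top2a UMI, 30 in PT-Cy and 440 in alloBMT, it was -0.91 for Nfatc1, 1.27 for Nfatc2, -0.94 for Ppp3cc and 0.83 for the sparse Rcan1. The Nfatc1 value was thus under 2-fold and the Nfatc2 value over 2-fold among cells without those division genes. These values rest on 30 PT-Cy cells and are given without intervals, so their side of 2-fold is not settled.

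The genes around calcineurin were read as lists. Upstream, of 17 genes of calcium entry and sensing, 14 reached 100 UMIs. In PT-Cy, 2 of them were higher past 1.5-fold and 1 was lower, and the median log2 ratio was -0.04. Among all genes at that minimum, 12.5% were higher past 1.5-fold and 9.50% lower, and the median was 0.02. Orai1, the pore of the calcium channel opened by store depletion, had 149 UMIs in PT-Cy and 665 in alloBMT, a log2 ratio of -0.90 (-1.16 to -0.64). Its relative Orai2 had 112 and 191 UMIs, a log2 ratio of 0.49 (0.14 to 0.83). Atp2b1, a pump that exports calcium, had 907 and 1245 UMIs, a log2 ratio of 0.80 (0.68 to 0.93), and Calm3, a calmodulin gene, had 117 and 154 UMIs and 0.86 (0.50 to 1.22). Stim1, the calcium sensor of the store, had 471 and 856 UMIs and a log2 ratio of 0.40. Itpr2, a calcium release channel, stood at -0.47 (-0.60 to -0.34).

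Of 11 other calcineurin subunits and inhibitors, 5 reached 100 UMIs, 1 was higher past 1.5-fold and 0 lower, and the median log2 ratio was -0.27. Ppia, cyclophilin A, through which ciclosporin acts, had 985 UMIs in PT-Cy and 1503 in alloBMT, a log2 ratio of 0.65 (0.53 to 0.77). The regulatory subunit gene Ppp3r1 had 31 and 99 UMIs, -0.41 (-1.05 to 0.18), Chp1, a calcineurin-like calcium binding protein, stood at -0.48 (-0.85 to -0.12), and Fkbp1a, through which tacrolimus acts, at -0.27 (-0.57 to 0.03). Of 16 genes of NFAT kinases and nuclear export, 8 reached 100 UMIs, with 1 past 1.5-fold in each direction and a median of -0.03. Csnk1d and Csnk1a1, casein kinase 1 genes whose products keep NFAT phosphorylated, stood at -0.72 (-1.07 to -0.39) and -0.55 (-0.71 to -0.39). The JNK gene Mapk8 stood at 0.72 (0.21 to 1.21) and the export receptor gene Xpo1 at 0.45 (0.24 to 0.66).

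Of 12 NFAT partners, 8 reached 100 UMIs, 0 were higher past 1.5-fold and 2 lower, and the median log2 ratio was -0.08. Batf, an AP-1 family factor, had 110 UMIs in PT-Cy and 429 in alloBMT, a log2 ratio of -0.70 (-1.02 to -0.40). Maf, a factor that works with NFAT at cytokine genes, had 445 and 1692 UMIs and a log2 ratio of -0.67 (-0.82 to -0.52). Junb stood at -0.47 (-0.65 to -0.30), while Fos, with 50 and 85 UMIs, stood at 0.49 (-0.04 to 1.02) and Jun at 0.39 (-0.05 to 0.82). Foxp3, which binds DNA with NFAT in regulatory T cells, had 44 UMIs in PT-Cy and 42 in alloBMT, below the minimum. Nfatc4 was at 0 in both libraries.

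Genes known as NFAT targets in T cells lay mostly lower in PT-Cy, with a few on the other side. Of 32 listed, 23 reached 100 UMIs. Past 1.5-fold, 18 of these were lower in PT-Cy and 3 higher, and their median log2 ratio was -1.32. Past 2-fold, 13 were lower and 1 was higher, where 2.88% and 4.93% of all tested genes were. The list was drawn up with lower values of several of its genes in these libraries already known, so it is no independent evidence of a direction. Within cluster 2, 14 of 25 targets with at least 20 UMIs were lower past 1.5-fold, where 13.7% of all genes at that minimum were, and their median was -0.70. Within cluster 4 it was 8 of 14 targets, where 16.5% of all genes were, with a median of -0.70. Nr4a2, a nuclear receptor induced by receptor signals, had 153 UMIs in PT-Cy and 1781 in alloBMT, a log2 ratio of -2.28 (-2.53 to -2.04). Il10, an inhibitory cytokine, had 19 and 210 UMIs, and Egr1, an early response factor, had 19 and 144. Lag3 and Tigit, both inhibitory receptors, had 43 and 793 UMIs and 45 and 357 UMIs.

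The genes on the other side were Il2ra, Cd40lg and Nr4a1. Il2ra, the alpha chain of the IL-2 receptor, had 173 UMIs in PT-Cy and 70 in alloBMT, a log2 ratio of 2.57 (2.16 to 2.99). Cd40lg, the helper ligand, had 188 and 235 UMIs, a log2 ratio of 0.94 (0.65 to 1.22). Nr4a1 had 47 and 71 UMIs, 0.67 (0.10 to 1.22), whereas its relative Nr4a3 stood at -0.96 (-1.47 to -0.48). The 4 regulatory T cell markers, which include Il2ra and Ctla4, summed to 2010.1 CPM in PT-Cy and 1121 CPM in alloBMT, and their part in the Il2ra value was not tested. The cytokine targets were mostly sparse. Il2 had 5 UMIs in PT-Cy and 2 in alloBMT, Il4 had 5 and 0, and Tnf had 20 and 23, while Ifng, with 96 and 652, stood at -1.50 (-1.83 to -1.19).

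**Figure D4:**
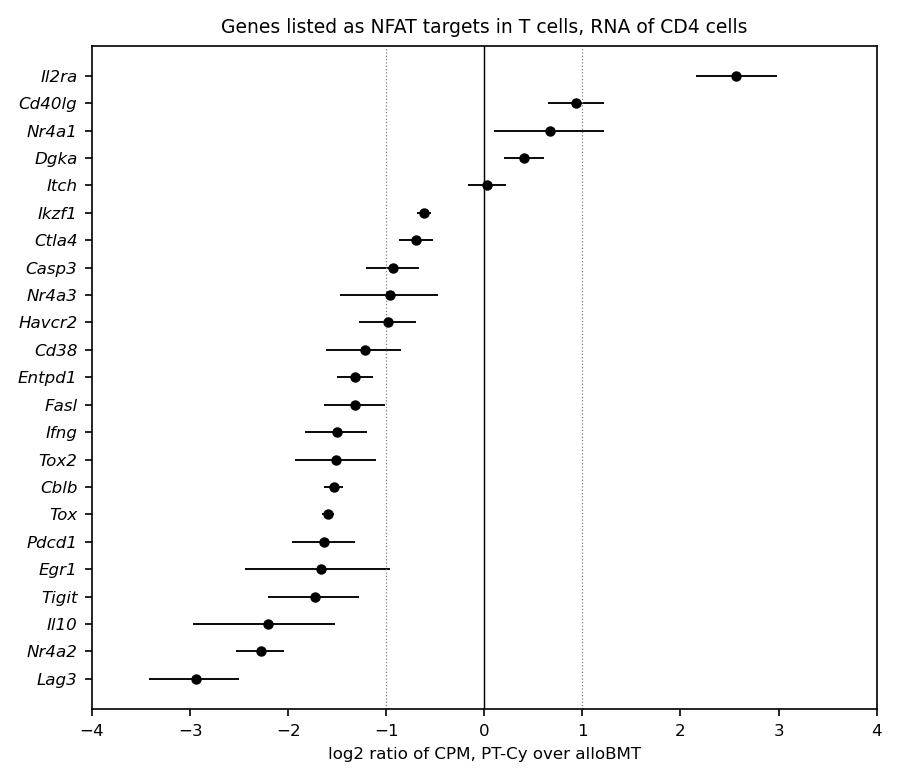
Log2 ratio of PT-Cy over alloBMT (horizontal axis) with exact 95% counting intervals for the 23 listed NFAT target genes with at least 100 UMIs in CD4 cells, dotted lines at 2-fold. The ratios run from -2.94 for Lag3 to 2.57 for Il2ra, and past 1.5-fold 18 genes are lower and 3 higher in PT-Cy.

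Whether target transcripts sat in the same cells as Nfatc1 was read within each library after thinning. Of 18 targets found in at least 20 thinned PT-Cy cells, 10 were found in a higher share of cells with a Nfatc1 UMI than without, where 51.1% of all genes at that minimum were, and none had intervals apart. In alloBMT 20 of 25 were higher, where 49.6% of all genes were. None of these 20 had intervals apart, while 1 target was lower with intervals apart. The share of all genes with intervals apart was not computed, so the counts of intervals apart have no background. Actb, which is no target, was found in 99.1% of alloBMT cells with Nfatc1 and 97.6% without. The target that was lower with intervals apart was Il2ra. In PT-Cy it was found in 15.3% (8.83 to 24.0) of cells with Nfatc1 and 14.3% (9.28 to 20.7) of cells without. In alloBMT it was found in 1.11% (0.409 to 2.40) of cells with Nfatc1 and 4.83% (2.66 to 7.97) of cells without, which rests on 6 and 14 cells. How weak a link between transcripts could be seen at 1981 UMIs per cell was not computed. The cells of each library were pooled over clusters, and the part of cluster mix in these shares was not tested.

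No member locus passed 1.5-fold in accessibility. Summed over peaks within 10 kb, 0 of 8 loci were past 1.5-fold in CD4 cells, against 5.35% of all loci, and 0 of 8 in CD8 cells, against 3.91% (1.90% lower and 2.01% higher). Nfatc1 (chr18:80606205-80713071) had 33 peaks with 712 counts in PT-Cy and 3607 in alloBMT CD4 cells, a log2 ratio of -0.16 (-0.28 to -0.04). In CD8 cells it had 1538 and 8236 counts, a log2 ratio of -0.01 (-0.09 to 0.07). The Nfatc1 locus was thus close to equal in both sets while its RNA was 2.34-fold lower in CD4 cells. Nfatc2 (chr2:168476410-168601657) had 25 peaks with 430 and 1794 counts in CD4 cells, 0.12 (-0.04 to 0.27), and 860 and 3487 counts in CD8 cells, 0.39 (0.28 to 0.50). The Nfatc2 ratio in CD4 cells minus that in CD8 cells was -0.27 on the log2 scale, with an approximate normal interval of -0.46 to -0.09. Within CD8 cluster 2, which held 170 PT-Cy and 139 alloBMT cells, the Nfatc2 ratio was 0.51 (0.31 to 0.72). It was -0.13 (-0.52 to 0.27) within CD8 cluster 5 and 0.21 (-0.06 to 0.49) within CD8 cluster 6.

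Rcan1 (chr16:92391951-92466169) was less open in PT-Cy in both sets. Its 14 peaks had 102 counts in PT-Cy and 649 in alloBMT CD4 cells, a log2 ratio of -0.49 (-0.81 to -0.19). In CD8 cells they had 253 and 1683 counts, a log2 ratio of -0.32 (-0.52 to -0.13). In CD4 cells 3.44% of loci had a lower ratio, and in CD8 cells 7.08% had. Within CD4 cluster 2 the ratio was 0.01 (-0.59 to 0.65), an interval that holds both 0 and the value over all CD4 cells. It was -0.03 (-0.36 to 0.29) within CD8 cluster 2, -0.59 (-1.23 to 0.08) within cluster 5 and -0.56 (-1.10 to -0.03) within cluster 6. Nfat5 (chr8:107293435-107379517) had 125 and 729 counts in CD4 cells, -0.36 (-0.65 to -0.09), and -0.59 (-1.07 to -0.10) within cluster 2, against -0.06 (-0.23 to 0.11) in CD8 cells.

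The calcineurin loci had ratios near 0 or slightly above it. Ppp3ca (chr3:136669714-136937727) had 41 peaks and log2 ratios of 0.17 (0.01 to 0.33) in CD4 and 0.22 (0.11 to 0.33) in CD8 cells, and 0.39 (0.19 to 0.59) within CD8 cluster 2, -0.05 (-0.44 to 0.36) within cluster 5 and 0.12 (-0.17 to 0.42) within cluster 6. Ppp3cb (chr14:20499364-20546573) stood at 0.10 (-0.17 to 0.37) and 0.14 (-0.04 to 0.32), and Ppp3cc (chr14:70217864-70289536) at 0.02 (-0.19 to 0.24) and -0.03 (-0.18 to 0.11). Within CD8 cluster 2 these were 0.43 (0.09 to 0.77) for Ppp3cb and -0.34 (-0.59 to -0.09) for Ppp3cc. In CD8 clusters 5 and 6 Ppp3cb stood at 0.21 and -0.19 and Ppp3cc at 0.29 and 0.22, and each interval held 0. Nfatc3 (chr8:106058818-106130537) stood at -0.07 (-0.25 to 0.11) and -0.11 (-0.23 to 0.01). The Nfatc3 span overlaps Esrp2, and long noncoding RNA genes overlap Nfatc1, Nfat5, Ppp3cb, Ppp3cc and Rcan1, so peaks and reads there may belong to either gene.

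Single peaks showed where the loci differed. Of 34 member peaks with at least 100 counts in CD4 cells, 2 were past 2-fold, both less open, against 4.57% of all peaks (3.82% less open and 0.751% more open). Of 58 in CD8 cells, 3 were less open and 1 more open past 2-fold, against 4.28% of all peaks (3.27% and 1.01%). Over both sets, 5 of 78 were less open and 1 more open, against 5.27% (3.69% and 1.59%). These shares are near the background, so the peaks that follow describe the loci and do not set them apart. Inside Nfatc1, the peak at chr18:80619206-80619727 had 4 counts in PT-Cy and 135 in alloBMT CD8 cells, a log2 ratio of -2.66 (-4.56 to -1.27), and 3 and 42 counts in CD4 cells. In alloBMT CD8 cells it was highest in cluster 3 at 14.6 CPM and cluster 2 at 10.1 CPM. Within CD8 cluster 2 it had 2 counts in PT-Cy and 22 in alloBMT, within cluster 5 it had 2 and 0, and within cluster 6 it had 0 and 3. A second peak at chr18:80628926-80629319 had 5 and 99 counts in CD8 cells, -1.89 (-3.55 to -0.62), but 6 and 26 in CD4 cells, 0.06 (-1.51 to 1.38). Within CD8 cluster 2 this second peak was close to equal, with 3 counts in PT-Cy and 5 in alloBMT, or 2.10 and 2.30 CPM. Within CD8 cluster 5 it had 1 and 0 counts, and within cluster 6 it had 1 and 2. Another at chr18:80617223-80617548 had 3 and 64 counts in CD8 cells, with an interval of -4.32 to -0.39, and 1 and 27 in CD4 cells. These 3 lie 83.9 to 95.7 kb inside the gene from its end with the higher coordinate.

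At that same end the Nfatc1 peaks were close to equal. The peak chr18:80712321-80713304, which covers it, had 138 counts in PT-Cy and 668 in alloBMT CD8 cells, 0.14 (-0.14 to 0.40), and 66 and 263 in CD4 cells, 0.19 (-0.23 to 0.58). Just outside, chr18:80715258-80715575 went the other way, with 30 and 76 counts in CD8 cells, 1.07 (0.41 to 1.70), and 14 and 33 in CD4 cells. In CD4 cells the peak chr18:80652732-80653209 had 0 counts in PT-Cy and 46 in alloBMT, with an upper interval bound of -1.40 for its log2 ratio, and it had 4 and 65 counts in CD8 cells. That peak and the one over the gene end were picked after their values were seen.

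At Nfatc2 the peak over the internal start shown above, chr2:168588747-168591547, was the largest, with 262 counts in PT-Cy and 1045 in alloBMT CD8 cells and 93 and 470 in CD4 cells. Its log2 ratio was 0.42 (0.22 to 0.61) in CD8 and -0.16 (-0.49 to 0.17) in CD4 cells. The peak over the distal start, whose window has 3 GGAAA matches, had 19 and 74 counts in CD8 and 14 and 30 in CD4 cells. Scaled by the set totals, 1538967 in PT-Cy and 6974362 in alloBMT, the CD4 value was higher in PT-Cy, on few counts. Of 9 Nfatc2 peaks with at least 100 counts in CD8 cells, 4 had intervals above 0 and 0 below, where 8.90% of all such CD8 peaks had intervals above 0. The peak with the largest ratio in CD4 cells, chr2:168531457-168531978, rested on 6 and 3 counts. In CD4 cells 5 Nfatc2 peaks reached 100 counts, and 0 had an interval that excluded 0. Of 19 with at least 20 counts, 5 were more open past 2-fold and 0 less open. Intervals lay above 0 for 4 of these and below 0 for 0. The share of all CD4 peaks at 20 counts was not computed.

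At Rcan1 the peak over the distal start was close to equal, with 67 counts in PT-Cy and 343 in alloBMT CD4 cells and 157 and 857 in CD8 cells, a log2 ratio of -0.04 (-0.29 to 0.21) in CD8. The less open peaks lay inside the gene. The peak chr16:92460273-92461091, 5.49 kb from that end, had 9 and 185 counts in CD8 cells, -1.95 (-3.10 to -0.99), and 3 and 37 in CD4 cells. The peak chr16:92442915-92444280 had 15 and 139 counts in CD4 cells, -1.03 (-1.91 to -0.26), and 37 and 321 in CD8 cells, -0.70 (-1.24 to -0.21). Within CD4 cluster 2 this peak stood at 9.70 CPM in PT-Cy and 10.8 CPM in alloBMT, and within cluster 4 at 6.67 and 30.9 CPM. The cluster 4 values rest on 1 and 10 counts, and their intervals (0.169 to 37.2 and 14.8 to 56.9) overlapped. Within CD8 clusters 2, 5 and 6 the same peak stood at 13.3, 10.9 and 8.13 CPM in PT-Cy. The alloBMT values there were 12.9, 11.3 and 17.2 CPM, and the intervals overlapped within each of these clusters. The window before the internal start, with its 3 GGAAA and TGANTCA matches, lay in a peak of 2 and 13 counts in CD4 and 7 and 44 in CD8 cells, too few to read.

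Upstream of Nfat5, the peak chr8:107290869-107291689, 1.75 kb outside the gene, had 12 counts in PT-Cy and 118 in alloBMT CD4 cells, -1.12 (-2.11 to -0.26). Within CD4 cluster 2 it had 9 counts in PT-Cy and 14 in alloBMT, from 238 and 42 cells. Scaled, these were 6.71 CPM (3.07 to 12.7) and 30.1 CPM (16.5 to 50.6), with intervals apart. In CD8 cells the peak had 53 and 401 counts, -0.51 (-0.95 to -0.09). The peaks with the largest counts at Nfatc3 (526 and 2732 over both sets), Ppp3ca (545 and 2598) and Ppp3cb (380 and 1718) had log2 ratios of -0.04 (-0.17 to 0.10), 0.09 (-0.05 to 0.22) and 0.16 (-0.00 to 0.32). Peaks of Nfatc3 (chr8:106123499-106123723, 8 and 5 counts in CD8 cells) and Ppp3cc (chr14:70264783-70265073, 7 and 5 counts in CD4 cells) had high ratios on very few counts.

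**Figure D5:**
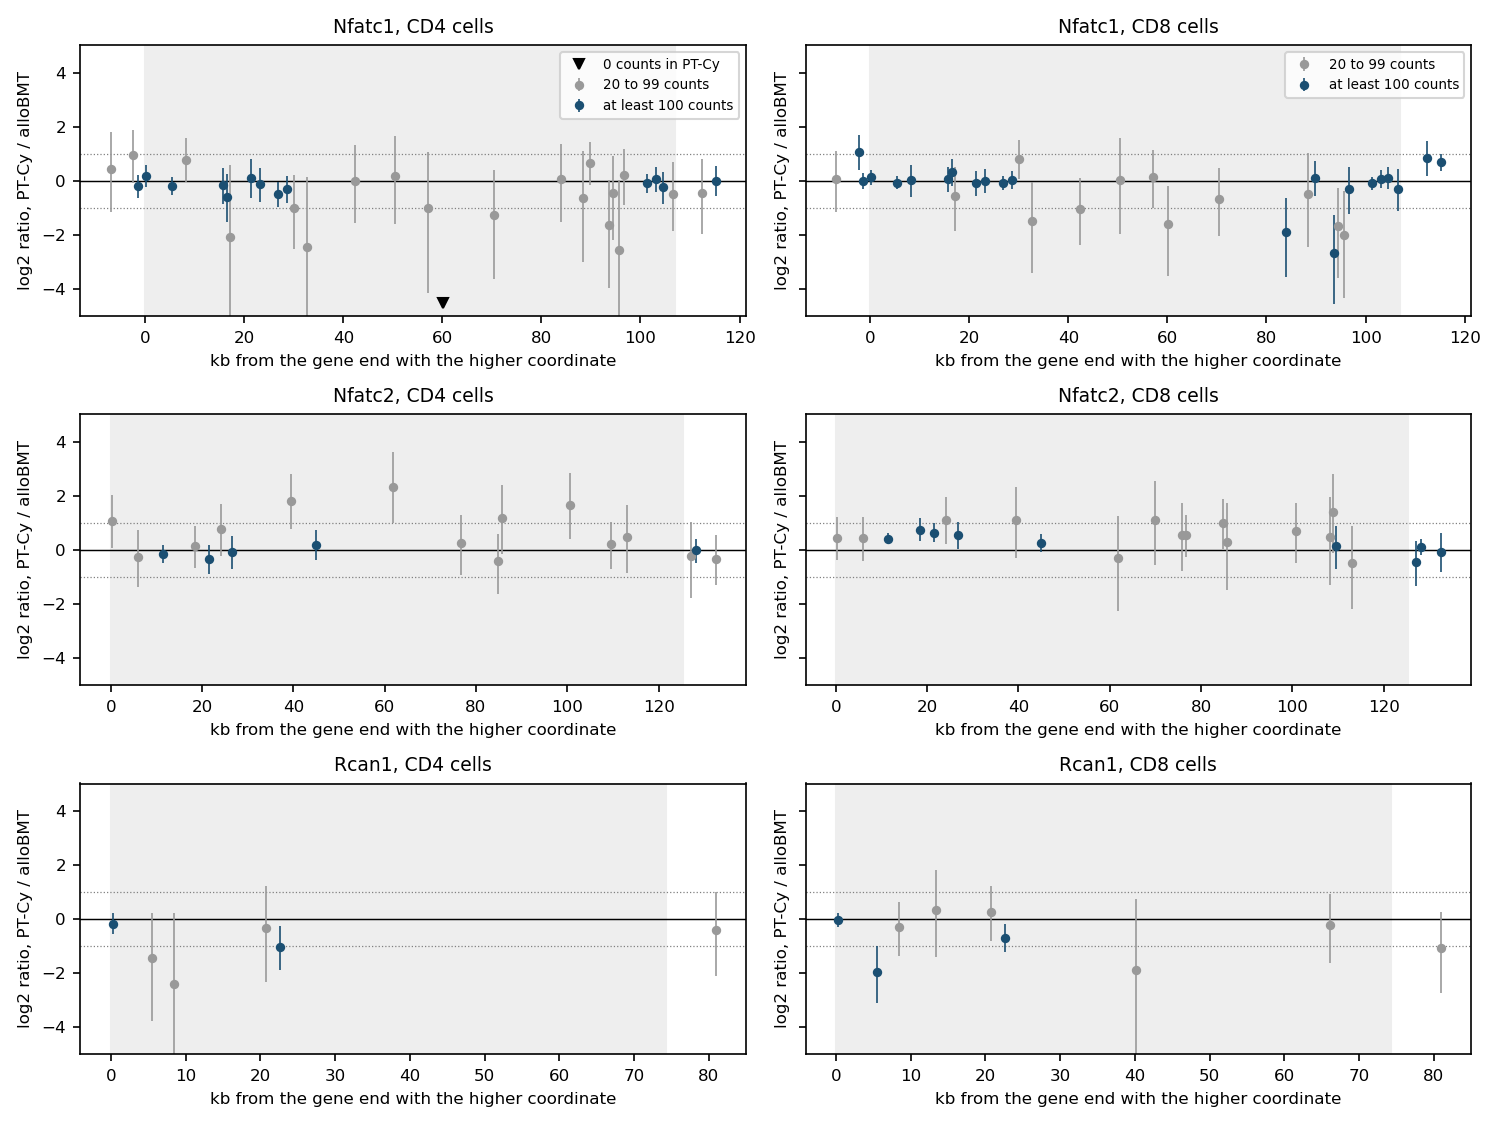
Log2 ratio of PT-Cy over alloBMT for each peak with at least 20 counts (vertical axis, exact 95% counting intervals, cut at the axis) against its distance in kb from the gene end with the higher coordinate, for Nfatc1, Nfatc2 and Rcan1 in CD4 (left) and CD8 cells (right); grey bands span the genes and the triangle marks a peak with 0 counts in PT-Cy. In CD8 cells the Nfatc1 peak at 93.6 kb lies at -2.66 and the Rcan1 peak at 5.49 kb at -1.95, while 4 of 9 well-covered Nfatc2 peaks have intervals above 0.

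The accessibility of the target genes was compared in the same way. Of 32 target loci in CD4 cells, 2 were at least 1.5-fold higher and 5 lower in PT-Cy, with a median log2 ratio of -0.14. In CD8 cells 0 of 32 were past 1.5-fold in either direction, with a median of -0.00. The CD4 loci past 1.5-fold included Nr4a2 at -0.81 (-1.03 to -0.60), Il10 at -0.71 (-0.98 to -0.45) and Il2ra at 0.69 (0.49 to 0.89), which had RNA differences of the same sign. These 3 are a part of the loci past 1.5-fold and were picked after their values were seen. The lowest was Il21 at -0.84 (-1.34 to -0.39). Il2, at 0.63 (-0.07 to 1.29), rested on 102 counts. The RNA of Il21 and Il2 was below 100 UMIs. The list was drawn up with earlier results of these libraries known. The 3.14% of all CD4 loci that were 1.5-fold higher and the 2.21% that were lower are the background. In the other 4 lists, 0 measured loci were past 1.5-fold in either set.

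The genes most like each member across the 7 strata of library and CD4 cluster were listed by Pearson correlation of log2(CPM + 10), as a description over 7 points that share 2 libraries. For Nfatc1 these were Ccl4, a chemokine gene (0.99), Nr4a2 (0.98) and the Src family kinase gene Fyn (0.98), of 1843 candidates. A correlation over 0.9 was reached by 103 candidates, so the closest names are not set apart from many others. For Nfatc2 they were Actb (0.98), the small GTPase gene Rac2 (0.97) and Mdm4 (0.96). For Nfat5 they were the protease gene Ctss (0.99), Sh3rf1 (0.98) and Kdm3b (0.98), and Ctss belongs to the monocyte marker list, whose part in this likeness was not tested. For Nfatc3 they were Map4k4, Gna13 and Nsd3, for Ppp3ca Cd37, Psme2 and Nlrc3, for Ppp3cb Micos10, Rock2 and Papola, and for Ppp3cc Mir142hg, Nabp1 and Pik3cd.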

How the data were processed

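The 4 libraries (RNA and ATAC, PT-Cy and alloBMT) were grouped by their labels. The submitters' processing notes name Cell Ranger ARC 1.0.1 and MACS2. They also name GRCh38, a human build, although the genes are mouse. Of 32851 RefSeq promoter windows (GRCm38.p6), 50.9% overlapped a deposited peak, against 8.11% to 8.58% after shifts of 2000 to 200000 bases, so that table was used with the peaks. For peak settings, cell filters and doublets, the sources used here give nothing. No doublet caller was run, and leaving out the 5% of cells with the most UMIs was an alternative.

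The deposited RNA and ATAC tables hold raw counts per gene or peak and cell, per the file headers, and the summed counts of 1210 of 1210 and 3587 of 3587 cells equalled the deposited totals. The deposited per-cell table gives clusters, the mitochondrial percent (medians 4.75% in PT-Cy and 3.69% in alloBMT CD4 cells) and the fraction of fragments in peaks, per the file headers, with medians, given as percent, of 58.3% and 66.6%. Of its 58 columns 49 were not used. The intronic share of RNA was 42.7% in PT-Cy and 45.1% in alloBMT, and 2 barcodes occurred in both libraries.

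Counts were summed per library and set, scaled by the set's total and compared as log2 ratios with exact conditional binomial (Clopper-Pearson) 95% intervals. CPM have exact Poisson and shares exact binomial intervals, and the CD4 minus CD8 difference has an approximate normal interval. All of these describe counting error, with no estimate of the spread between mice. A call needed 2-fold (or 1.5-fold where stated) and 100 counts over both libraries, or 20 within cell subsets. A peak belonged to a gene when within 10 kb of it, and gene spans are those of RefSeq. GGAAA and TGANTCA were searched on both strands, and a match of the one never overlapped the other in the windows shown. The members and the 5 lists were chosen with earlier results of these data known. Named were all members, up to 6 genes of each list with the largest ratios, further genes of the lists picked after their values were seen, peaks past 2-fold, the 4 largest, and the 3 with the largest ratios each way whose interval excluded 0. One gene that this rule names is not reported here. Likeness used genes with 500 UMIs. Co-detection with Nfatc1 was added after the data were seen. On simulated Poisson counts for 6285 genes, 95.4% of intervals of unchanged genes held the true value. Of the 200 genes given a log2 ratio of 1.5, 99% were past 2-fold, and 1 unchanged gene was. Among 35872 CD8 peaks simulated in the same way, 118 unchanged peaks were past 2-fold. These counts hold counting error alone, as the intervals assume, so they check the calculation and not the spread between cells or mice. Alternatives were edgeR 4.0.16 TMM and DESeq2 1.42.0 factors, other count minimums, windows, cell subsets, per-cell means and thinning. Scripts ran in R 4.3.3 and Python 3.11.15 with pandas 2.3.3, scipy 1.17.1, numpy 2.4.6 and matplotlib 3.10.9.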

Additional observations from a re-analysis of the deposited data

How the results depend on the processing

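No paired analysis was possible because each group has 1 library per assay. The Nfatc1 RNA ratio was below 0 under all 10 alternatives, from -1.42 to -0.78. It was -0.78 within cluster 2, -0.98 within cluster 4, -0.91 in cells with no Mki67 or Top2a UMI and -1.42 after thinning. The Nfatc2 RNA ratio ran from 0.35 to 1.27. Nfat5, Rcan1, Ppp3cc and Nfatc3 RNA took the other sign under 5, 3, 2 and 1 of 10 alternatives. Members past 2-fold numbered 0 within cluster 2, against 1. Members past 1.5-fold numbered 1 within cluster 2 and 4 in cells with no Mki67 or Top2a UMI, against 2. They numbered 1 without cells holding a neutrophil, monocyte, B cell or platelet marker UMI. Target genes 1.5-fold lower numbered 8 within cluster 4, where 14 were measured, against 18. With each cell counted once per peak, 1 member locus (Rcan1, -0.61) passed 1.5-fold in CD4 cells, against 0. Member peaks past 2-fold numbered 4 at 50 counts, 21 at 20 counts and 1 with each cell counted once in CD4 cells, against 2, and 11, 20 and 2 in CD8 cells, against 4. The other 50 of 66 settings of the main results left them within the limits set. The cause of these shifts was not tested. TMM and DESeq2 scaling each shifted RNA ratios by -0.06. The 2 libraries allow no estimate of the spread between mice, and at few counts the intervals of single peaks are wide, such as -2.11 to -0.26 for the Nfat5 peak with 12 and 118 counts.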
